A study of Homo sapiens with 6 samples.

Results

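The genes for albumin, alpha-fetoprotein and the other plasma carrier proteins of the liver were followed in HepG2, a human hepatoma cell line, after exposure to a water extract of the leaves of Barringtonia racemosa. The list named 10 genes (ALB, AFP, TTR, RBP4, GC, SERPINA1, SERPINA6, SERPINA7, AHSG and AMBP), and a row of the array table belonged to it when the platform's annotation gave it exactly 1 symbol and that symbol was on the list. This found 9 transcript clusters for 9 of the 10 genes, 1 cluster a gene, out of 19291 tested clusters for 18372 genes. GC, the vitamin D binding protein, was not analysed here. The leaf-treated cells received the extract at 50 µg/ml for 24 h and the untreated cells did not, with 3 Affymetrix Human Gene 1.0 ST arrays in each group. Both groups were of the same cell line, cultured in DMEM with foetal bovine serum and antibiotics, and the labels call the 3 samples of a group biological replicates without saying whether they came from separate cultures. The p-values below therefore measure only the spread between these samples. Values are log2 expression values as deposited, so that a difference of 1 is a doubling.

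Hepatocytes secrete most of the proteins of blood plasma. Albumin, the most abundant of them, carries fatty acids, bilirubin, metals and drugs, and alpha-fetoprotein is its relative in the foetal liver, which is largely switched off after birth and made again by many liver tumours. Transthyretin (TTR) carries thyroxine and holds the retinol-binding protein RBP4 in the circulation, while the serpins SERPINA6 and SERPINA7 have lost inhibitory activity and transport cortisol and thyroxine. In inflammation the liver lowers its output of albumin, transthyretin, RBP4, cortisol-binding globulin and AHSG, and raises that of positive acute phase proteins such as SERPINA1.

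ALB and AFP lie next to each other on chromosome 4 and descend from a common ancestral gene. The region around the start of each is shown because the values of these 2 genes are set side by side across the arrays below. The sequences are RefSeq's for GRCh38.p14, from 250 bases before to 50 after the annotated start, on the plus strand, at chr4:73404037-73404336 for ALB and chr4:73435971-73436270 for AFP. Capitals mark GTTAAT, a half-site common in promoters of liver genes, TATAAA, the TATA box, and CCAAT, each searched on both strands, so that CCAAT also appears as ATTGG. In these 2 windows the marked motifs did not overlap.
ALB: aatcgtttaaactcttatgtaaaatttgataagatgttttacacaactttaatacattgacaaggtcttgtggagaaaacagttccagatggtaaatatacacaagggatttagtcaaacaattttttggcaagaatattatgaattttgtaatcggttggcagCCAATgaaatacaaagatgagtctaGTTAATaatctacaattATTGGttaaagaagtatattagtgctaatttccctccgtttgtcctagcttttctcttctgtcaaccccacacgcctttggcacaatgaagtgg
AFP: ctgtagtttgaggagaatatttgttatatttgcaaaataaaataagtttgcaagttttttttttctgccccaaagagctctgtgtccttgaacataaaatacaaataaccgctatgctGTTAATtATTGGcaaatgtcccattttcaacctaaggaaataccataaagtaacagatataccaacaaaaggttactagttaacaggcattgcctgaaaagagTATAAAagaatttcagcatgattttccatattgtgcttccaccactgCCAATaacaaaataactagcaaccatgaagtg

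ALB and AFP each held GTTAAT once and CCAAT 2 times, and AFP also held TATAAA once, where ALB had no exact match. Variants of the TATA box were not searched for, so this does not show that ALB lacks one. Windows of the same kind were found for 8 of the genes, 11 windows in all because RBP4 and SERPINA1 have several annotated starts, and TTR was not among them. GTTAAT was present in 5 of the 11 windows, 1 each of ALB, AFP, SERPINA1, SERPINA6 and SERPINA7, and in 6.88% of the 35116 promoter windows of all genes. TATAAA was present in 5 of the 11 windows, those of AFP, RBP4 and SERPINA7, against 11.5% of all windows, and CCAAT in 5 of the 11 against 34.6%. A match describes the letters only and is not evidence that a factor binds there.

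The cell line was checked against markers of hepatocytes and of other cells. The 9 hepatocyte markers measured (12 clusters, among them APOA2, APOB and TF) lay above a level of 3.86, which is 1 above the highest array median of 357 olfactory receptor clusters, in both groups. The mean over these clusters was 8.60 to 8.82 on the leaf-treated arrays and 8.67 to 8.76 on the untreated arrays. Endothelial markers were above 3.86 in 0 of 5 clusters, fibroblast markers in 1 of 7 (COL1A1) and blood markers in 2 of 6 (LYZ and CD68) in either group, and squamous markers in 2 of 4 leaf-treated and 1 of 4 untreated (KRT14 in both, KRT16 in leaf-treated cells only). PTPRC, PECAM1, DCN, LUM and HBB, which define blood, endothelial, fibroblast and red cells, were all under 3.86. Other markers of the same lists were not. LYZ had a mean of 10.57 in leaf-treated and 10.46 in untreated cells, about as high as AFP. CD68 had 6.69 and 6.90, and COL1A1 4.43 and 4.19. Leaf-treated array 2 was closer to the untreated arrays than to the other leaf-treated arrays, though no farther from its group than array 3. The upper quartile of its values was 5.34, within the 5.26 to 5.34 of the untreated arrays, while leaf-treated arrays 1 and 3 had 5.19 and 5.18. Across the 19291 clusters, which are not independent replicates, the mean Pearson correlation of leaf-treated array 2 was 0.9873 with the other leaf-treated arrays and 0.9924 with the untreated arrays. Leaf-treated arrays 1 and 3 had 0.9881 and 0.9873 within the group and 0.9872 and 0.9858 with the untreated arrays. Values without array 2 are therefore given for each gene where they change its direction or its size by more than 1.5 times.

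After 24 h of leaf extract, transcripts of the plasma carrier genes stayed close to their level in untreated cells. None of the 9 clusters passed an adjusted p under 0.05, which 0.00518% of all tested clusters did, and none passed the thresholds of the series' design, 1.5 fold or more in either direction together with a p under 0.05 before adjustment, which 0.84% did. The mean of RBP4 was 18.0% below that of untreated cells and the mean of TTR 13.9% above it, and the other 7 lay between these 2. At an unadjusted p under 0.05 from limma there was 1 of the 9 clusters (TTR), and the groups did not overlap in the same 1 of 9. Over all clusters 9.77% and 13.5% met these rules, so that 1 of 9, or 11.1%, lay close to both shares. With the values as deposited the largest change was the 1.22 fold of RBP4, while after quantile normalization TTR had the largest, a log2 fold change of 0.29 against -0.17 for RBP4. With the values as deposited, the 95% interval of each, from limma, lay inside 1.5 fold in either direction, from -0.58 at its lowest bound to 0.43 at its highest. The same was true of the intervals of 83.5% of all clusters. The lowest bound, that of RBP4, was only just inside. Intervals were not computed for other settings, where its log2 fold change reached -0.35 after centring and -0.39 without leaf-treated array 2. In RNA from whole cultures, fewer cells that express a gene and less RNA per cell cannot be told apart.

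**Figure D1:**
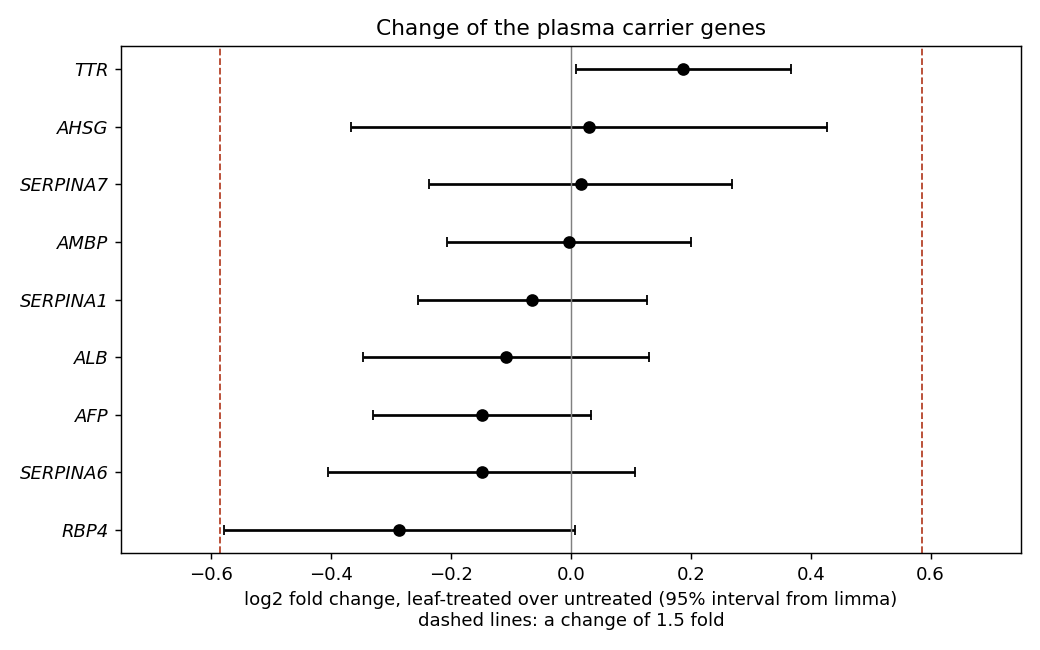
The log2 fold change of leaf-treated over untreated cells for the 9 plasma carrier genes, ordered from the highest to the lowest, with 95% intervals from limma (n = 3 arrays in each group). Dashed lines stand at 1.5 fold, and no interval reaches them, with RBP4 the nearest at a lower bound of -0.58.

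ALB, the main binding and osmotic protein of plasma, had log2 values of 10.86, 10.94 and 11.03 on the leaf-treated arrays, against 11.04, 10.90 and 11.21 on the untreated arrays. The groups overlapped, since untreated array 2 lay below leaf-treated arrays 2 and 3. The mean was 10.94 ± 0.09 in leaf-treated and 11.05 ± 0.16 in untreated cells (SD, n = 3 each), a log2 fold change of -0.11 (standard error 0.10, 95% interval -0.35 to 0.13, adjusted p = 0.684 from limma). Without untreated array 3, the highest of the 6, the log2 fold change was -0.027, and without untreated array 2 it was -0.18. AFP, the foetal relative of albumin, had 10.23, 10.28 and 10.33 in leaf-treated cells, against 10.43, 10.32 and 10.52 in untreated cells. Leaf-treated array 3 lay just above untreated array 2, and the other 2 leaf-treated arrays lay below each untreated array. The AFP mean was 10.28 ± 0.05 in leaf-treated and 10.43 ± 0.10 in untreated cells (SD, n = 3 each), a log2 fold change of -0.15 (standard error 0.08, 95% interval -0.33 to 0.03, adjusted p = 0.53 from limma). After quantile normalization these log2 fold changes were -0.040 for ALB and -0.057 for AFP.

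The difference of AFP minus ALB within an array removes whatever scales both values alike, and only its change between groups is read here. It was -0.63, -0.66 and -0.71 in leaf-treated cells, against -0.61, -0.58 and -0.69 in untreated cells. These ranges overlapped, and the means differed by -0.040, which is less than the SD of the untreated arrays (0.060). Among 3412 clusters of other genes with a mean log2 value of 6 or more, AFP ranked 8 in likeness to ALB over the 6 arrays, with a root mean square difference of 0.0457 between values centred on their own mean, and ALB ranked 32 in likeness to AFP. The profiles most like that of ALB were 2 clusters of EEF1A1 (0.0326 and 0.0333), a translation elongation factor, and CD2AP (0.0328), an adaptor protein. Those most like AFP were FAM83D (0.0236), UBE2Q2P2 (0.0241) and GINM1 (0.027). With 6 arrays such likeness is a description only.

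TTR, the thyroxine carrier, had log2 values of 9.45, 9.50 and 9.35 in leaf-treated cells, against 9.32, 9.25 and 9.17 in untreated cells. It was the 1 plasma carrier gene of which each leaf-treated array lay above each untreated array. The mean was 9.44 ± 0.08 in leaf-treated and 9.25 ± 0.07 in untreated cells (SD, n = 3 each), and the log2 fold change of 0.19 (standard error 0.07, 95% interval 0.01 to 0.37) had an unadjusted p of 0.0424 and an adjusted p of 0.507 from limma. It was 0.29 after quantile normalization and 0.12 after centring each array on its median. RBP4, the retinol carrier that travels bound to TTR, had 8.11, 8.28 and 7.83 in leaf-treated cells, against 8.36, 8.28 and 8.44 in untreated cells. Leaf-treated array 2 was at the level of untreated array 2, and leaf-treated array 3 was the lowest of the 6. The RBP4 mean was 8.07 ± 0.23 in leaf-treated and 8.36 ± 0.08 in untreated cells (SD, n = 3 each), a log2 fold change of -0.29 (standard error 0.12, 95% interval -0.58 to 0.01, adjusted p = 0.513 from limma). It was -0.39 without leaf-treated array 2 (adjusted p = 0.146) and -0.17 without leaf-treated array 3 (adjusted p = 0.693), and its adjusted p ranged from 0.146 to 0.824 over all alternatives.

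TTR and RBP4 form a complex in plasma, and their difference within each array was also compared, after the values had been seen. TTR minus RBP4 was 1.34, 1.23 and 1.52 in leaf-treated cells, against 0.96, 0.97 and 0.74 in untreated cells. The groups did not overlap, and the mean difference was 0.47 higher in leaf-treated cells, 1.39 fold. The exact two-sided permutation test gave p = 0.10, the smallest that 3 arrays against 3 allow, and p = 0.30 after Benjamini-Hochberg adjustment over the 3 pairs compared (TTR with RBP4, AFP with ALB, SERPINA6 with SERPINA1). The change was 0.46 after quantile normalization and 0.51 with array weights. The other settings cannot alter a difference within an array, so their equal values say nothing about its stability. It ranged from 0.40 to 0.54 when each array was left out in turn. TTR and RBP4 had the highest and the lowest log2 fold change of the plasma carrier genes, and the pair was picked for its separation. Neither p-value is therefore a test of it, and the adjustment over 3 pairs does not cover that choice. The value is a description only.

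**Figure D2:**
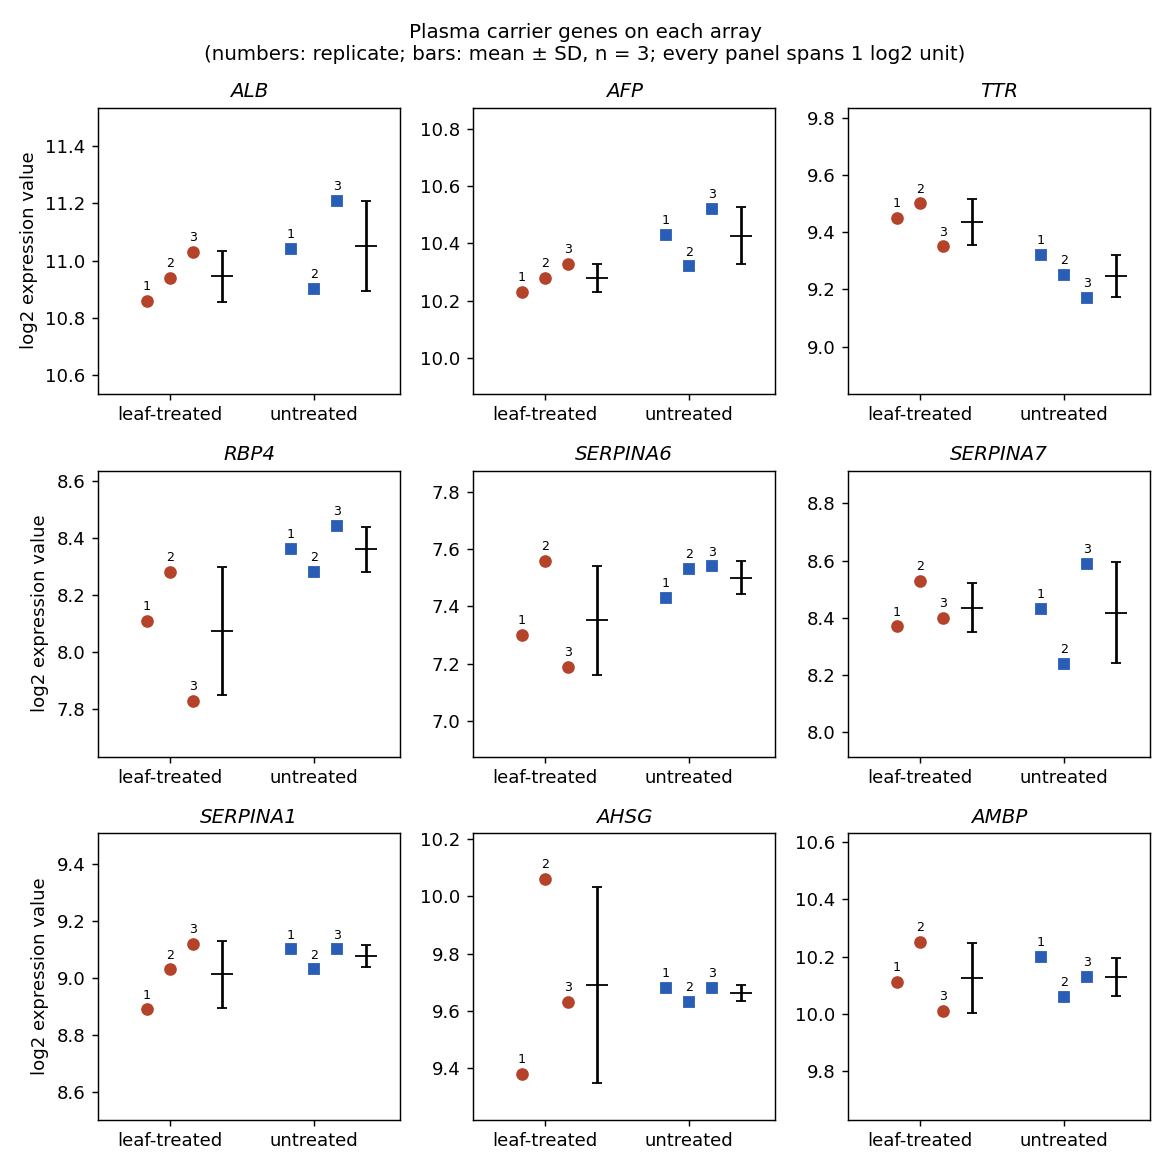
Log2 expression values of the 9 plasma carrier genes on each array, with leaf-treated arrays (red circles) left of untreated arrays (blue squares), the replicate number above each point, and the mean ± SD (n = 3) as bars. Each panel spans 1 log2 unit; TTR is the 1 gene with separate groups, and leaf-treated array 2 is the highest AHSG value at 10.06.

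The carriers of hormones belong to the serpin family. SERPINA6, which encodes the cortisol-binding globulin, had 7.30, 7.56 and 7.19 in leaf-treated cells, against 7.43, 7.53 and 7.54 in untreated cells. Leaf-treated array 2 was the highest of the 6 and the other 2 leaf-treated arrays were the lowest. The mean was 7.35 ± 0.19 in leaf-treated and 7.50 ± 0.06 in untreated cells (SD, n = 3 each), a log2 fold change of -0.15 (standard error 0.11, 95% interval -0.40 to 0.11, adjusted p = 0.614 from limma), which was -0.25 without leaf-treated array 2 (adjusted p = 0.151, with a range of 0.151 to 0.953 over the alternatives), -0.070 without leaf-treated array 3 and -0.018 after quantile normalization. SERPINA7, the thyroxine-binding globulin, had 8.37, 8.53 and 8.40 in leaf-treated cells, against 8.43, 8.24 and 8.59 in untreated cells. The leaf-treated values all fell inside the range of the untreated ones. Its log2 fold change was 0.017 (standard error 0.11, 95% interval -0.24 to 0.27, adjusted p = 0.96 from limma), and its sign turned after centring each array on its median (-0.048) and without leaf-treated array 2 (-0.032) or untreated array 2 (-0.075).

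SERPINA1, alpha-1-antitrypsin, which inhibits neutrophil elastase, had 8.89, 9.03 and 9.12 in leaf-treated cells, against 9.10, 9.03 and 9.10 in untreated cells. Leaf-treated arrays 1 and 3 were the lowest and the highest of the 6. Its log2 fold change was -0.064 (standard error 0.08, 95% interval -0.26 to 0.13, adjusted p = 0.762 from limma), and it was 0.035 after quantile normalization and -0.0013 without leaf-treated array 1. SERPINA6 lies in the same gene cluster on chromosome 14, and SERPINA6 minus SERPINA1 was -1.59, -1.47 and -1.93 in leaf-treated cells, against -1.67, -1.50 and -1.56 in untreated cells. The groups overlapped, with a difference between the means of -0.085 (exact two-sided permutation test, p = 0.80, and adjusted p = 0.80 over the 3 pairs).

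AHSG, fetuin-A, which binds calcium phosphate in plasma, had 9.38, 10.06 and 9.63 in leaf-treated cells, against 9.68, 9.63 and 9.68 in untreated cells. The leaf-treated arrays lay on both sides of the untreated ones and were spread more widely, with an SD of 0.34 in leaf-treated and 0.028 in untreated cells (n = 3 each). The log2 fold change was 0.030 (standard error 0.17, 95% interval -0.37 to 0.43, adjusted p = 0.954 from limma), and without leaf-treated array 2 it was -0.15 (adjusted p = 0.394, with a range of 0.394 to 0.989 over the alternatives). It was also below 0, at -0.034, after centring on the median. AMBP, the precursor of the lipocalin alpha-1-microglobulin and of bikunin, had 10.11, 10.25 and 10.01 in leaf-treated cells, against 10.20, 10.06 and 10.13 in untreated cells. The untreated range lay within that of the leaf-treated arrays, and the log2 fold change was -0.0036 (standard error 0.08, 95% interval -0.21 to 0.20, adjusted p = 0.991 from limma), with a sign that turned after quantile normalization (0.071) and without leaf-treated array 1 (0.0020), leaf-treated array 3 (0.055) or untreated array 1 (0.030). It was -0.068 without leaf-treated array 2.

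**Figure D3:**
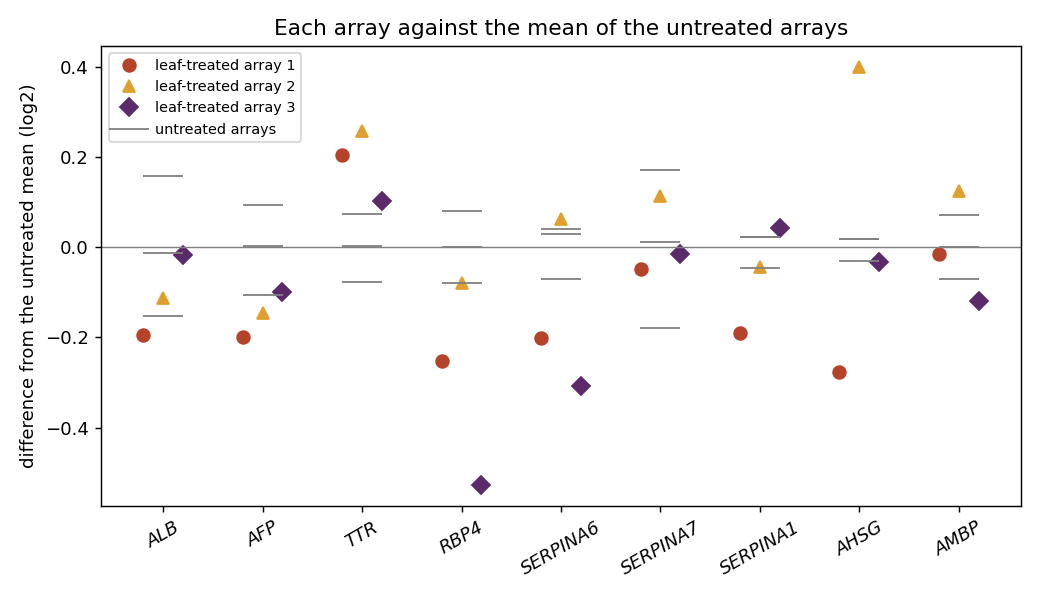
Difference of each leaf-treated array from the mean of the 3 untreated arrays, in log2 units, for the 9 plasma carrier genes, with the untreated arrays as grey dashes. Leaf-treated array 1 lies below 0 for 8 of the 9 genes, array 2 for 4 and array 3 for 7, and TTR is above 0 on each of them.

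The 3 leaf-treated arrays did not differ alike from untreated cells. On leaf-treated array 1 there were 8 of the 9 genes below the untreated mean, with a median difference of -0.19, and on array 3 there were 7, with a median of -0.033. On array 2, the one closest to the untreated arrays over all clusters, 4 were below and 5 above, with a median of 0.063. AFP, ALB and RBP4 were below the untreated mean on each leaf-treated array, and TTR above it on each. The SD was larger in leaf-treated than in untreated cells for 6 of the 9 genes, and for 66.4% of all tested clusters. The median log2 fold change of the 9 clusters was -0.064, with 6 of 9 below 0, against 0.011 and 46.9% below 0 over all tested clusters. The hepatocyte markers had 9 of 12 clusters below 0 and a median of -0.11 (APOA1 and APOC3 each stand for 2 clusters with the same values), and the part of this in the values of the carrier genes was not tested. The median of the 9 was 0.035 after quantile normalization and -0.13 after centring, so that its sign depended on how the arrays were scaled. It was -0.11 without leaf-treated array 2 and -0.0013 without leaf-treated array 1.

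The other genes were taken from lists of plasma proteins, relatives and regulators, described by their counts and medians. The sign of the median turned under quantile normalization or centring for each of these 6 lists but the receptors and enzymes. With dim clusters left out, the medians were 0.0043 for other plasma carriers, -0.091 for positive acute phase proteins, 0.22 for the relatives, -0.028 for the liver transcription factors, -0.14 for the receptors and enzymes and -0.11 for the oncofetal genes. Without leaf-treated array 2 the median was 0.12 for other plasma carriers, -0.016 for the receptors and enzymes and -0.15 for the oncofetal genes. Other plasma carriers (20 of 20 genes, 22 clusters, median log2 fold change 0.057) had 1 cluster higher and 2 lower past the thresholds of the design, which 0.84% of all tested clusters passed. APOM stands for several of these clusters, with the same values in each. At an unadjusted p under 0.05 from limma, which 9.77% of all clusters met, there were 3 higher and 3 lower, and at an adjusted one 0. CP, the copper protein ceruloplasmin, had 8.25, 8.37 and 8.45 in leaf-treated cells, against 8.02, 7.56 and 7.63 in untreated cells, a log2 fold change of 0.62 (limma, standard error 0.13 and adjusted p = 0.383). HP, haptoglobin, which binds free haemoglobin, had 7.75, 7.85 and 7.41, against 8.37, 8.31 and 8.31 in untreated cells, a log2 fold change of -0.66 (limma, standard error 0.12 and adjusted p = 0.332). The groups of both genes were separate. HPR, a near copy of HP, had a log2 fold change of -0.75 (adjusted p = 0.469 from limma, -0.50 without leaf-treated array 3), and probes of the 2 genes may not be told apart. TF, the iron carrier transferrin, named after its values were seen, had 10.98, 11.17 and 11.21 in leaf-treated cells, against 11.14, 11.12 and 11.21 in untreated cells. Its log2 fold change of -0.037 (adjusted p = 0.871 from limma) was 0.0014 after quantile normalization, -0.062 without leaf-treated array 2 and 0.035 without leaf-treated array 1.

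Positive acute phase proteins (19 of 20 genes, 21 clusters, median -0.046) had 1 cluster higher and 2 lower past the thresholds of the design, which 0.84% of all tested clusters passed. These were CP, higher, and HP, lower, as in the list before, and HAMP, lower. At an unadjusted p under 0.05 from limma, which 9.77% of all clusters met, there were 4 clusters higher and 3 lower. CFB stands for several clusters with the same values, and with the clusters of each gene averaged the median of this list turned to 0.0089. HAMP, the iron hormone hepcidin, had 4.25, 4.82 and 4.45 in leaf-treated cells, against 6.45, 6.71 and 6.72 in untreated cells. Its log2 fold change of -2.12 (limma, standard error 0.16 and adjusted p = 0.0548) was the largest of these lists in size and passed an adjusted p under 0.05 in 6 of 15 alternative settings, where adjusted p ranged from 0.0126 to 0.597. The 13 relatives of the carrier genes, such as AFM and the other A-type serpins, had 0 clusters past the thresholds of the design. They had 1 at an unadjusted p under 0.05 from limma, and a median of 0.014. That median includes dim clusters, since AFM, SERPINA2, SERPINA9, SERPINA12 and SERPINA13P had means under 3.86 in both groups. SERPINA3, SERPINA4, SERPINA5, SERPINA10 and SERPINA11 lay above 3.86, with log2 fold changes from 0.065 (SERPINA10) to 0.53 (SERPINA3), none past the adjustment. SERPINA3, alpha-1-antichymotrypsin, a serpin of the same gene cluster as SERPINA1, had 8.98, 9.15 and 8.67 in leaf-treated cells, against 8.39, 8.33 and 8.51 in untreated cells, a log2 fold change of 0.53 (adjusted p = 0.411 from limma). These groups were separate too. SERPINA5, the protein C inhibitor, had a log2 fold change of 0.33 (adjusted p = 0.528 from limma), and of 0.17 without leaf-treated array 2.

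**Figure D4:**
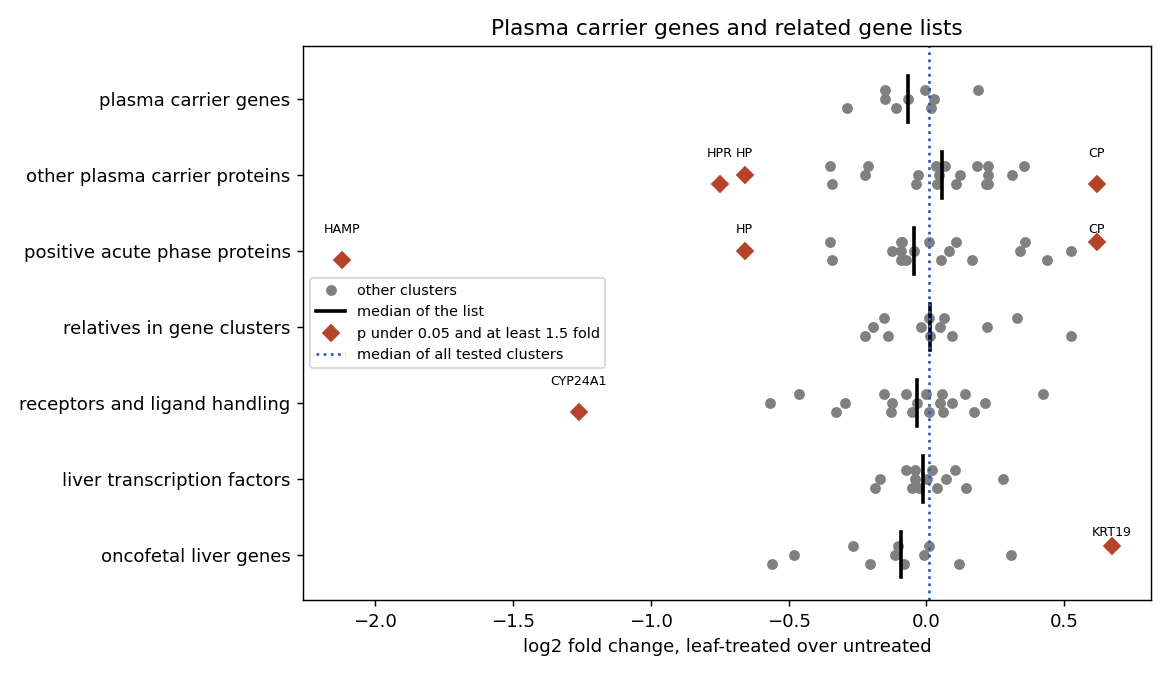
Log2 fold change of leaf-treated over untreated cells for each cluster of the plasma carrier genes and of 6 related lists, with the median of each list as a black bar and that of all tested clusters as a dotted line. Red diamonds are clusters past an unadjusted p of 0.05 and 1.5 fold; the carrier genes hold none, and HAMP is the farthest from 0 at -2.12.

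Receptors and enzymes that handle the carried ligands (21 of 24 genes, median -0.035) had 1 cluster past the thresholds of the design, which 0.84% of all tested clusters passed. It was CYP24A1, a vitamin D hydroxylase. At an unadjusted p under 0.05 from limma, which 9.77% of all clusters met, there were 0 clusters higher and 3 lower. CYP24A1 had 6.51, 6.70 and 5.84 in leaf-treated cells, against 7.72, 7.63 and 7.49 in untreated cells, a log2 fold change of -1.26 (limma, standard error 0.22 and adjusted p = 0.328). NR3C1, the glucocorticoid receptor, had a log2 fold change of -0.46 (adjusted p = 0.506 from limma). Liver transcription factors, of which 14 of 18 were measured, had 0 past these thresholds, 0 at an unadjusted p under 0.05 from limma, and a median of -0.013. FOXA1 and FOXA3, which open chromatin at liver genes, had log2 fold changes of -0.17 and 0.15 (adjusted p = 0.513 for both from limma). After quantile normalization these were -0.062 for FOXA1 and 0.082 for FOXA3, and after centring FOXA3 was at 0.081. FOXA3 was dim, with means of 3.84 in leaf-treated and 3.69 in untreated cells, both under the marker level of 3.86. Its value is therefore not read as a rise. FOXA1 lay above that level, at 5.96 and 6.13.

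Oncofetal genes, which like AFP are active in foetal liver or liver tumours, were measured for 11 of 14 genes (12 clusters, median -0.093). At an unadjusted p under 0.05 from limma, which 9.77% of all clusters met, there were 1 higher and 2 lower. Past the thresholds of the design, which 0.84% of all tested clusters passed, there was 1 cluster, higher. This was KRT19, a keratin of bile duct and progenitor cells. It had 8.06, 8.35 and 7.73 in leaf-treated cells, against 7.42, 7.40 and 7.28 in untreated cells, a log2 fold change of 0.67 (limma, standard error 0.16 and adjusted p = 0.383). DLK1, a hepatoblast surface protein, had a log2 fold change of -0.48 (adjusted p = 0.506 from limma, -0.29 without leaf-treated array 3). GPC3, a glypican used with AFP as a tumour marker and named after its values were seen, had 10.30, 10.61 and 10.45 in leaf-treated cells, against 10.57, 10.48 and 10.55 in untreated cells. Its groups overlapped, and its log2 fold change was -0.082 (adjusted p = 0.735 from limma) and 0.045 after quantile normalization. Without leaf-treated array 2 it was -0.16, and without leaf-treated array 1 it was -0.0064.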

How the data were processed

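Total RNA of leaf-treated and untreated HepG2 cells was hybridised to 1-colour arrays. The authors deposited a single table of log2 values. GCOS, Partek and RMA are the tools in the submitters' notes on processing, and the sources used here do not give their options or the genome build. Of its 33297 rows, 4468 were 0 on every array and were taken as not reported. Symbols came from the platform annotation, updated by Entrez identifier to GRCh38.p14. The 19291 rows with exactly 1 symbol were tested, while 1735 with several symbols and 7803 unnamed rows were not.

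Groups were compared with limma 3.58.1 (lmFit and eBayes, no covariate) in R 4.3.3, with Benjamini-Hochberg adjustment over all 19291 clusters and a threshold of 0.05. The design's thresholds were applied to the same fit. The fit was checked on artificial data. The genes and lists were chosen with earlier results of these data known. Besides the carrier genes, those named are the genes of a list past the design's thresholds or, where under 2 passed, the 2 with the smallest p, and for ALB and AFP the 3 clusters of most like profile. The number of arrays limits the precision, and no detection calls were used. Alternatives were quantile normalization, centring on the median, array weights, a filter on dim clusters, a robust fit with an intensity trend, the design's analysis of variance, testing all rows, averaging clusters, a replicate block and leaving out each array.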

Additional observations from a re-analysis of the deposited data

How the results depend on the processing

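The counts of plasma carrier clusters at an adjusted p under 0.05 and past the thresholds of the design were 0 in each of the 9 alternative settings and with each of the 6 arrays left out. With the values as deposited and all arrays, limma gave 1 of the 9 at an unadjusted p under 0.05. Of 135 recomputed log2 fold changes of these genes, 123 kept their sign and the lowest adjusted p from limma was 0.146. Many of these signs could not turn. The dim filter, the robust fit with a trend and the analysis of variance leave the fold changes of these genes unaltered. So do testing all rows, averaging clusters and the replicate block. Only quantile normalization, centring, array weights and leaving out an array could move a sign. The 12 with the other sign belong to AHSG (-0.034 after centring, -0.044 with array weights, -0.15 to 0.18 with an array left out), AMBP (0.071 after quantile normalization, -0.068 to 0.055 with an array left out), SERPINA1 (0.035 after quantile normalization) and SERPINA7 (-0.048 after centring, -0.038 with array weights, -0.075 to 0.10 with an array left out). AMBP was 0.0020 without leaf-treated array 1, 0.055 without leaf-treated array 3 and 0.030 without untreated array 1, AHSG was -0.15 without leaf-treated array 2, and SERPINA7 was -0.032 without leaf-treated array 2 and -0.075 without untreated array 2. TF was 0.0014 after quantile normalization and -0.082 to 0.035 with an array left out (0.035 without leaf-treated array 1), and GPC3 was 0.045 after quantile normalization. The median over the carrier genes ranged from -0.13 to 0.035, and from -0.11 to -0.0013 with an array left out.

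Over all clusters, 1 passed an adjusted p under 0.05, against 8 after quantile normalization, 3 after centring, 4 without dim clusters, 2 with an intensity trend together with a robust fit, 3 with array weights, 31 with the design's analysis of variance, 2 with all rows, 2 with averaged clusters and 0 with any array left out. The thresholds of the design were passed by 162 clusters, by 101 with the analysis of variance, by 250 when all rows were tested, and by 111 to 490 with an array left out, 490 without leaf-treated array 2. The cause was not tested, apart from the larger number of rows. The labels do not say whether equal replicate numbers mark pairs. The deviations of same-numbered arrays from their group means correlated at -0.115, -0.177 and 0.121, and those of other numbers at -0.188 to 0.271. With 3 arrays in each group these values cannot decide whether the arrays were paired. With the replicate number as a block 0 clusters passed the adjustment, and the cause was not tested.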
